A study of Rattus norvegicus with 3 samples.

Results

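Cortical thymic epithelial cells (cTEC) are the epithelial cells of the outer, cortical zone of the thymus. As background, they depend on the transcription factor FOXN1, draw T cell progenitors in with the chemokine CCL25, feed them Notch ligand and interleukin 7, and display self-peptides cut by dedicated proteases. Developing T cells (thymocytes) whose receptors bind these peptides weakly survive, a step called positive selection. Medullary thymic epithelial cells (mTEC) take over later and display tissue-specific antigens.

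The cells described here are the barcodes of the stromal library whose deposited annotation reads TEC:cTEC, taken from the projected label where the authors gave one and from their cluster otherwise. They were 448 of 13226 annotated cells (3.39%, 95% Clopper-Pearson interval 3.09 to 3.71%), and 19.5% (17.9 to 21.2%) of the 2295 cells with an epithelial label. The stromal library came from CD45-negative cells of 8-week-old Lewis rat thymus, freed with Liberase TH plus DNase I, then enriched on magnetic beads and by flow sorting. A second droplet library held thymocytes of the same strain and age, released with collagenase D and DNase I, and the last sample was a 10 µm section of a Lewis thymus, also at 8 weeks, on a Stereo-seq chip, an array that captures RNA in place. No treatment or genotype other than the inbred strain was given, and how many animals were pooled was not given in the sources used here. Each group is 1 sample, so no test was possible, cells are not replicates, and every interval below covers counting error only. Shares of cells are those of the sorted suspension, not of the tissue.

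The labels and the deposited clusters were both made from the RNA of these cells, with rat and mouse reference data per the series text, so differences between labels are a description of the labels. Values are UMI counts (unique molecular identifiers, 1 per captured RNA molecule) summed over the cells of a label and scaled to 1000000 UMIs of that label (CPM). The cTEC summed to 4987504 UMIs, with a median of 10535 UMIs and 3687.5 genes per cell, against a median of 11634 UMIs in the 1847 other epithelial cells. The other epithelial labels with at least 50 cells were early Pr (1018 cells, the name as deposited), mTEC1 (482), mTEC-prol (76), mTEC2 (61) and mimetic(goblet) (55). No doublet caller was run. The stromal and thymocyte libraries shared 38 barcodes, 3 of which were labelled cTEC.

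The upstream sequences of Prss16, Pithd1, Ccl25 and Tbata are shown because these 4 genes were highest in cTEC among the epithelial labels, and their windows differ in the core bound by FOXN1. FOXN1 binds DNA through a short core, GACGC, which was searched on both strands (GCGTC on the other), with overlapping matches counted. In the 4 windows below no matches overlap. The windows are the 250 bases before each gene's start from the RefSeq table of rat build GRCr8, 5′ to 3′ on the gene's strand, with core matches in capitals.
Prss16 (chr17:47209831-47210080, plus strand): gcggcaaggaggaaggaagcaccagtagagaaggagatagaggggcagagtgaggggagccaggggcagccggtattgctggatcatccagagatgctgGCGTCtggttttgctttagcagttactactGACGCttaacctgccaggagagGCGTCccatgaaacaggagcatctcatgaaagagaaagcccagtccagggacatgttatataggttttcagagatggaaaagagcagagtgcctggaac
Pithd1 (chr5:153500026-153500275, minus strand): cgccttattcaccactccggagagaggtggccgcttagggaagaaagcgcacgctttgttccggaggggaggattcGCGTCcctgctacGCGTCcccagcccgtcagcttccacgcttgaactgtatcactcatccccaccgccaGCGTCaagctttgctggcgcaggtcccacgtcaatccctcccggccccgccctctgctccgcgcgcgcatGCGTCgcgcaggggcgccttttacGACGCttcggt
Ccl25 (chr12:7504985-7505234, plus strand): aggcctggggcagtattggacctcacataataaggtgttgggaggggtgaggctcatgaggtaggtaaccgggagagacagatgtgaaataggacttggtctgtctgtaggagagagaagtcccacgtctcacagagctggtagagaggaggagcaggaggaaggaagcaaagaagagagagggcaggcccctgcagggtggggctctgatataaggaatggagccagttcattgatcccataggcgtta
Tbata (chr20:29663274-29663523, plus strand): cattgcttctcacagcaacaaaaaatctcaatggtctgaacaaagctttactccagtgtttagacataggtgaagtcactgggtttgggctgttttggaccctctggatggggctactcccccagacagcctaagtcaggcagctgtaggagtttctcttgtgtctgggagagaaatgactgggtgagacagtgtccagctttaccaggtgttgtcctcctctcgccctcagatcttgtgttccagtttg
The Prss16 window held 3 matches, starting 151, 121 and 99 bases before the gene. The Pithd1 window held 5, and 0.0627% of the 33469 windows of this length in the table held as many. The windows of Ccl25 and Tbata held none. Any match was present in 21.7% of all windows and 3 or more in 1.19%. The bases G and C made up 52.8% of the Prss16 window, 65.2% of Pithd1, 53.6% of Ccl25 and 49.2% of Tbata. The shares over all windows were not matched for these bases, and their part in the match counts was not tested. Of 17 cTEC genes looked up, 13 had a window and 7 of these held the core, among them Ly75 and Cd83 with 2 matches each and Ctsl and Pax1 with 1. A match is a run of letters, and no binding was measured.

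The label was checked against 5 markers of cTEC, and 4 of them were highest in this label. Prss16, which encodes a serine protease made by cortical epithelium, stood at 207.1 CPM in cTEC against 10.8 in early Pr, the next epithelial label, a ratio of 19.2 (15.99 to 23.2). Ccl25 stood at 534.7 CPM against 110.8 in mTEC2, a ratio of 4.83 (3.94 to 5.97) that was 2.45 for the cTEC of the deposited cluster TEC-b alone. Pithd1, which encodes a PITH-domain protein, stood at 442.3 CPM against 73.2 in mTEC-prol, a ratio of 6.05 (4.95 to 7.46) that was 3.54 in TEC-b. Psmb11, the catalytic subunit of the thymoproteasome of cTEC, gave 52 UMIs in 40 cTEC (10.4 CPM), 8 UMIs in early Pr and 3 in mTEC1. mTEC-prol, mTEC2 and goblet-like mimetic cells had no Psmb11 UMI. The marker that did not follow the label was Foxn1 itself, at 54.7 CPM in cTEC, 57.8 in mTEC-prol and 76.6 in mTEC2. Its ratio to mTEC2 was 0.715 (0.546 to 0.949).

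**Figure D1:**
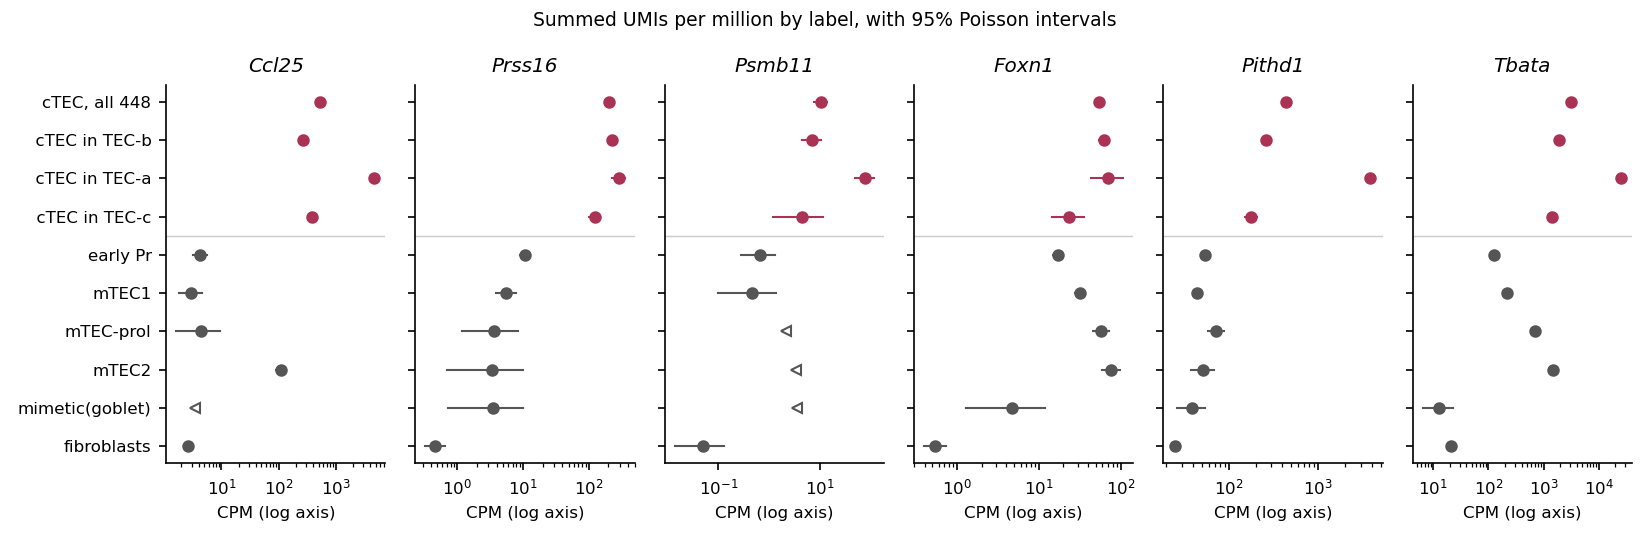
CPM of the 5 cTEC markers and Tbata (log axis) for all cTEC, for cTEC by deposited cluster and for the other epithelial labels and fibroblasts, from summed UMIs; bars are 95% Poisson intervals, and open arrows mark labels under 3 UMIs, drawn at 3 UMIs. Barcodes with 3 or more Adipoq UMIs are left out of the cluster rows. Ccl25, Prss16 and Pithd1 are highest in cTEC, Foxn1 is near the same level in mTEC-prol and higher in mTEC2, and the cTEC of cluster TEC-a lie above those of TEC-b for every gene but Foxn1 and Prss16, whose intervals overlap.

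Most cTEC carried few of these transcripts. Ccl25 was detected in 117 of 448 cells (26.1%, 22.1 to 30.4%), Prss16 in 113 (25.2%), Foxn1 in 156 (34.8%), Pithd1 in 289 (64.5%) and Psmb11 in 40 (8.93%). In fibroblasts (the labels capFb and TMC1 to TMC4 pooled, 8216 cells), which should lack the cortical markers, the shares were 2.19% for Ccl25, 0.450% for Prss16, 0.523% for Foxn1 and 20.7% for Pithd1, at a median of 9006.5 UMIs per cell. With each cell thinned to 1000 UMIs (439 cTEC kept, 9 left out), the Ccl25 share was 17.1% in cTEC, 0.591% in early Pr and 0.280% in fibroblasts. The thinned Prss16 share was 9.57% in cTEC, 0.887% in early Pr and 0.0731% in fibroblasts. For Pithd1 the thinned shares were 26.4% in cTEC and 2.55% in fibroblasts. None of the 5 markers was detected in 98 cTEC (21.9%), and 13 cells (2.90%) had all 5. In early Pr, 433 cells (42.5%) had none and no cell had all 5. The highest Ccl25 count in a cTEC was 182 UMIs, and 85 cells had 3 or more.

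Tbata, named for its expression in thymus, brain and testis, stood at 3128 CPM in cTEC, 1482 in mTEC2, 685.4 in mTEC-prol and 128.6 in early Pr. A level of 1000 CPM in a cell, chosen after the values were seen, was reached by 152 cTEC (33.9%), and 33 cTEC lay between 500 and 2000 CPM. Those 152 cells held 2648 of the 2667 Ccl25 UMIs of the label and 35 of its 40 Psmb11-positive cells. Prss16 stood at 767.9 CPM in them and at 13.2 CPM in the other 296 cTEC, which is close to the early Pr level. Foxn1 was detected in 45.4% of the Tbata-high cells and 29.4% of the others. Ccl25 was detected in 100 of the 152 Tbata-high cells and Prss16 in 80, against 17 and 33 of the other 296, so the Tbata-high cells did not all carry these markers. Among other labels Tbata reached 1000 CPM in 24 of 61 mTEC2 cells (39.3%) and 22 of 1018 early Pr cells (2.16%). In those mTEC2 cells Prss16 stood at 5.47 CPM.

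By deposited cluster, 311 cTEC (69.4%) lay in TEC-b, 72 (16.1%) in TEC-a and 55 (12.3%) in TEC-c, with 5 each in TEC-d and Endo-2. TEC-b was also the main cluster of early Pr, and cTEC made up 22.4% of it. The clusters differed in ways that touch the results below, and values for the cTEC of TEC-b are given beside the named genes that lost a call there. Ratios of the markers moved too. In TEC-b alone the ratio to the next epithelial label was 2.45 for Ccl25 and 3.54 for Pithd1, and without cells under 1% mitochondrial UMIs it was 2.51 and 3.48. Both alternatives were chosen after the values were seen.

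A set of 10 barcodes labelled cTEC, 9 in TEC-a and 1 in TEC-c, carried 6 to 127 UMIs of Adipoq, the adipocyte hormone adiponectin, and 104 to 2089 UMIs of Fabp4, a lipid carrier of fat and endothelial cells. Of the other 438 cTEC, 437 had no Adipoq UMI and 1 had 1. These 10 barcodes held 95.01% of the Adipoq UMIs of the annotated library, had a median of 35211 UMIs and had no UMI of Ccl25, Prss16, Psmb11 or Foxn1. Epcam, an epithelial adhesion gene, was detected in 1 of them. They made up 2.23% of cTEC and 6.50% of the cTEC UMIs. On these genes they go against their label. No endothelial marker of 10 and no thymocyte gene of 10 was detected in them. Of 10 fibroblast markers 9 were detected (609 UMIs, 1879 CPM), and 9 of the barcodes had 10 or more of these UMIs. Pithd1 was detected in 6 of them and Tbata in 7, at no more than 3 and 6 UMIs a barcode.

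The other 63 cTEC of cluster TEC-a were marker-rich and shallow. Their median was 3618 UMIs and 1536 genes, against 10757 and 3726 in TEC-b. Ccl25 was detected in 56 of the 63 (88.9%) at 4657 CPM, against 51 of 311 (16.4%) at 271.1 CPM in TEC-b. After thinning, the Ccl25 shares were 86.0% and 7.07%. Tbata stood at 25770 CPM in TEC-a and 1881 in TEC-b, and Pithd1 at 3861 and 258.8. Prss16 was nearly level, at 286.9 and 228.5 CPM. Mitochondrial transcripts moved with this split. The 15 mitochondrial genes made up a median of 0.143% of UMIs in the 63 TEC-a cells and 6.09% in TEC-b. Under 1% was found in 55 of those 63 cells and 2 of 311 in TEC-b, with 5 cTEC between 0.5 and 1% and 3 between 1 and 2%. Over the library, cells under 1% were 14.3% of cTEC (64 cells), 3.03% of other epithelial cells (56) and 0.979% of non-epithelial cells (107). The part that depth and mitochondrial share have in the TEC-a levels was not tested.

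**Figure D2:**
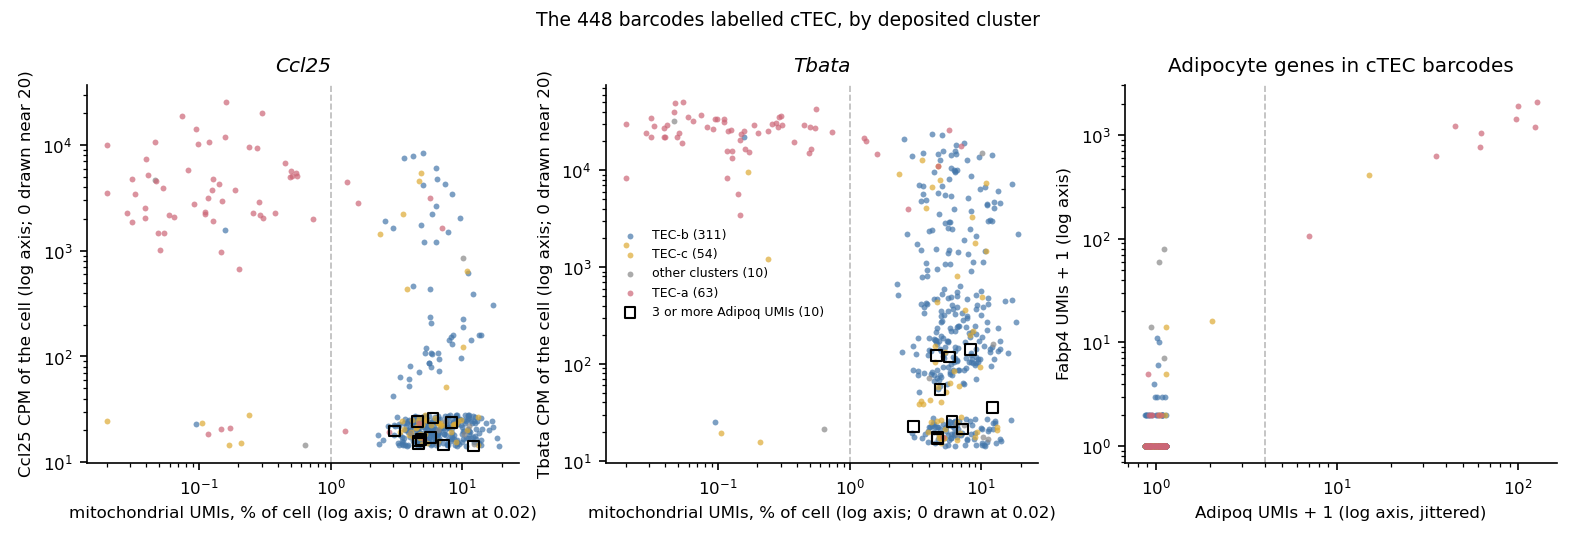
Each point is a barcode labelled cTEC, coloured by deposited cluster; the left and middle panels plot Ccl25 and Tbata CPM of the cell against the percent of its UMIs from 15 mitochondrial genes, and the right panel plots Fabp4 against Adipoq UMIs (all log axes). Of the 63 TEC-a points, 55 lie left of the 1% line, TEC-b spreads from 0 to high Tbata at ordinary mitochondrial shares, and 10 barcodes lie right of the dashed line at 3 Adipoq UMIs.

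Between the TEC-a and TEC-b cTEC, 802 of 5969 genes (13.4%) were at least 2-fold higher in TEC-a and 2414 (40.4%) at least 2-fold lower, with a median over all these genes of -0.58 on the log2 scale, a shift the values below include. The genes named next were taken from the largest ratios after the values were seen. Ooep, an oocyte-expressed gene, stood at 2481 CPM in TEC-a and 8.23 in TEC-b. Uchl1, a ubiquitin hydrolase known from neurons, stood at 587.2 and 1.47 CPM. F2, which encodes prothrombin, stood at 2956 and 43.8 CPM. Syne3, the nuclear envelope protein nesprin-3, stood at 2214 and 22.1 CPM. In mTEC2, Ooep stood at 5.71 and Syne3 at 4.57 CPM. On the lower side, the growth factor gene Nrg1 stood at 6.75 and 1035 CPM, the adhesion gene Sdk1 at 30.4 and 2399 CPM, and the chemokine scavenger Ackr4 at 10.1 and 510.2 CPM. Of 16 class I and proteasome genes tested, 6 were higher in TEC-a and 8 lower. The 6 were the proteasome subunits Psmb5, Psmb6, Psmb7, Psmb8, Psmb9 and Psmb10, with Psmb10, an immunoproteasome subunit, at 1549 and 171.4 CPM. The lower genes included Psme1, a subunit of a proteasome activator, and the peptide transporter Tap1, at 13.5 and 81.5 CPM. Of 13 autophagy genes tested, 9 were higher and 1 lower, with a list median of 1.31 on the log2 scale, and Map1lc3b, the autophagosome protein LC3, stood at 509.6 and 107.6 CPM. Of the keratins, Krt8, Krt18 and Krt7 of simple epithelium were higher in TEC-a (Krt8 2103 and 708.4 CPM). Krt19, also of simple epithelium, was lower (23.6 and 1085 CPM), as were Krt5, Krt14 and Krt15 of basal epithelium (Krt14 324 and 5370 CPM). Of 20 receptor genes tested, 19 were lower and none higher, with a list median of -2.69, against 40.4% of all genes.

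The 55 cTEC of TEC-c carried fibroblast transcripts at a higher level than the other cTEC. The 10 fibroblast markers summed to 19430 CPM in them, 647.8 in TEC-b, 2055 in the 63 TEC-a cells and 39450 in fibroblasts, and all 10 were detected. In TEC-c, 49 of 55 cells had 10 or more of these UMIs, against 7 of 311 in TEC-b. Their median depth was 17483 UMIs. Ccl25 stood at 361.5 CPM in TEC-c and 271.1 in TEC-b, and Prss16 at 119.4 and 228.5. The part of depth and fibroblast RNA in the TEC-c values was not tested.

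Against the pooled other epithelial cells, 211 of 12744 genes (1.66%) were at least 2-fold higher in cTEC and 1061 (8.33%) at least 2-fold lower, with a median of -0.03 on the log2 scale over all genes tested. Genes with at least 100 UMIs over the groups compared were tested, and with 1 library called means past the fold. Without the 10 Adipoq barcodes the shares were 1.38% and 8.36%. For the cTEC of TEC-b they were 1.47% and 12.9%. Gene lists were compared with these shares.

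Of 27 genes tested from a list of epithelial transcription factors, 3 were higher and 6 lower, and the list median was 0.08. The 3 were Foxn1, Pax1 and Tbata, the last counted as a list member only. Pax1, a paired-box factor of the thymic primordium, stood at 207.3 CPM in cTEC, above every other epithelial label, and at 97.5 in the pooled other cells, a ratio of 2.13 (1.98 to 2.29). Foxn1 stood at 54.7 against 24.3 CPM, and in TEC-b at 63.2. Tp63, the regulator of epithelial stem cells, stood at 441.7 CPM against 321.5, and Pax9, Eya1 and Hoxa3, partners in thymus formation, were within 1.05 to 1.38 times the other cells. The 6 lower factors belong to medullary and mimetic cells: Aire, Fezf2 and Spib of mTEC, and Pou2f3, Foxi1 and Ehf. In TEC-b alone the ratio of Pou2f3 was 0.575, short of 2-fold, against 0.434 in all cTEC. Aire, which drives expression of tissue antigens, gave 0.201 CPM in cTEC and 468.4 in mTEC2.

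Of 31 ligands tested that guide thymocytes or shape the niche, 1 was higher (Ccl25) and 8 were lower, with a list median of 0.19. The lower genes included medullary chemokines. Ccl21, which draws mature thymocytes into the medulla, stood at 391.6 CPM in cTEC, 12500 in mTEC1 and 335.2 in early Pr. In the cTEC of TEC-b it stood at 129.1 CPM. Ccl19, which shares its receptor, stood at 267.1 CPM in cTEC and 3483 in mTEC1. Cxcl12, the CXCR4 ligand that holds progenitors in the cortex, stood at 1650 CPM in cTEC and 1866 in early Pr, so that its level did not set cTEC apart. Il7, a survival cytokine of early thymocytes, was highest in cTEC among epithelial labels, at 160.4 CPM against 125.4 in mTEC1, and 1.60 times (1.48 to 1.74) the pooled other cells. Kitlg, the KIT ligand, stood at 246.8 and 264.8 CPM in cTEC and early Pr. Dll4, the Notch ligand that commits progenitors to the T lineage, was low throughout, at 9.83 CPM in cTEC, 26.3 in mTEC2 and 107 in capillary endothelial cells.

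Of 26 receptors for stromal and thymocyte signals tested, none was higher and 3 were lower, with a list median of 0.03. The lower ones were Tnfrsf11a (RANK) at 5.21 CPM against 40.1, Cd40 at 25.3 against 51.9 and Fgfr3 at 3.61 against 9.84, the first pair being receptors through which thymocytes drive mTEC growth. The Cd40 ratio of 0.487 was 0.517 without the Adipoq barcodes and 0.539 in TEC-b, short of 2-fold in both. Fgfr2, the receptor for FGF7 and FGF10, stood at 263.5 CPM in cTEC and 268.7 in early Pr, and Bmpr1b, a BMP receptor, stood at 287.1 and 261.2 CPM.

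Of 19 class I and proteasome genes tested, none was higher and 1 was lower, with a list median of -0.19. That gene was Nlrc5, the activator of class I genes, at 7.42 CPM in cTEC, 7.91 in early Pr and 114.9 in mTEC1. B2m, the shared light chain of class I, was lowest in cTEC of the epithelial labels at 3843 CPM, against 6396 in the pooled other cells, and 4088 in TEC-b. Of 24 class II and lysosome genes tested, 3 were higher and 1 was lower, with a list median of -0.03. The higher genes were Prss16, Cd83 and Ctsl, the last encoding cathepsin L, the cortical protease that trims the class II invariant chain. Ctsl stood at 2353 CPM in cTEC, 1613 in early Pr and 128 in mTEC2, a ratio of 2.09 (2.05 to 2.14) to the pooled other cells, and 2.44 for TEC-b. Ctss, cathepsin S, its counterpart in the medulla, was the lower gene, at 2.01 CPM in cTEC and 88.0 in mTEC2. The class II genes themselves were level, with RT1-Da at 1201 CPM against 1193 and the invariant chain Cd74 at 2566 against 2408, while mTEC2 had 6720 and 9719. Cd83, which stabilises class II on the surface, was at 71.2 CPM in cTEC against 27.6. In TEC-b it was at 22.1, a ratio of 0.799, so this call against the pooled cells rests on the TEC-a cells. The pool includes mTEC2, with Cd83 at 487.9 CPM. Early Pr of cluster TEC-b had 2.68 CPM, and the TEC-b cTEC stood 8.24 times above them. All 17 autophagy genes were within 2-fold, with a list median of 0.01. Rat RT1 genes have close copies that share reads, so their single values are uncertain.

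Of 19 cortical surface and accessory genes tested, 5 were higher and 3 lower, with a list median of -0.21. Ly75, the endocytic receptor DEC-205 of cTEC, stood at 923.7 CPM in cTEC, 547.8 in early Pr and 255.1 in mTEC1, a ratio of 2.43 (2.35 to 2.52), and 3.04 for TEC-b. Cd274, the inhibitory ligand PD-L1, stood at 70.8 CPM against 32.3, with mTEC2 higher at 158.8. The costimulators Cd80 and Cd86, which serve negative selection, were lower, at 4.61 against 14.7 CPM and 0.201 against 5.15. Ackr4 stood at 412 CPM in cTEC and 947.3 in early Pr.

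Of 30 keratin and structural genes tested, none was higher and 5 were lower, with a list median of -0.07. In TEC-b, Lamb3, a laminin chain, crossed the threshold at 168.8 CPM against 71.8, and stood at 130.1 over all cTEC. The lower genes were Krt80, Cldn1, Cldn3, Cldn7 and Nid1. Krt8, often used as a cortical keratin, was lower in cTEC (686.1 CPM) than in mTEC1 (1182) and mTEC2 (2036), and Krt5 and Krt14, often used as medullary keratins, stood at 3119 and 4142 CPM in cTEC, 1.23 and 1.33 times the pooled other cells. Taken over whole labels, keratin transcripts thus did not divide them along the usual line. Within cTEC the levels differed. Cells with Tbata at 1000 CPM or more had Krt8 at 1093 and Krt5 at 2387 CPM, against 545.6 and 3372 in the other cTEC. In the TEC-a cells Krt8 was higher and Krt5 and Krt14 lower than in TEC-b, as given above.

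Against the pooled other epithelial cells, lists of other epithelial states were low. Of 15 medullary markers tested, 11 (Cd40 among them) were lower and none higher, with a list median of -2.38, and of 10 mimetic-cell markers 9 were lower, with a list median of -2.7. Of 14 proliferation genes tested 9 were lower, with a list median of -2.05. Early Pr shared these low levels. Against early Pr within TEC-b, none of 8 medullary, 2 mimetic and 3 proliferation genes tested was past 2-fold. The 18 medullary markers summed to 8161 CPM in cTEC and 7454 in early Pr, and the 16 proliferation genes to 134.3 and 111.8. Mki67 stood at 6.82 CPM in cTEC, 5.601 in early Pr and 348.2 in mTEC-prol. Of 13 stress and immediate-early genes 1 was lower (Atf3), or 3 in TEC-b, with a list median of -0.54 over all cTEC. Of 18 metabolic genes 2 were higher, Fasn and Scd, enzymes of fatty acid synthesis, and 1 lower, or 5 lower in TEC-b, with a list median of 0.24 over all cTEC. Of the 567 Scd UMIs in cTEC, 559 lay in the 10 Adipoq barcodes, and neither gene was called without these or in TEC-b, Scd falling under the 100-UMI minimum in both.

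**Figure D3:**
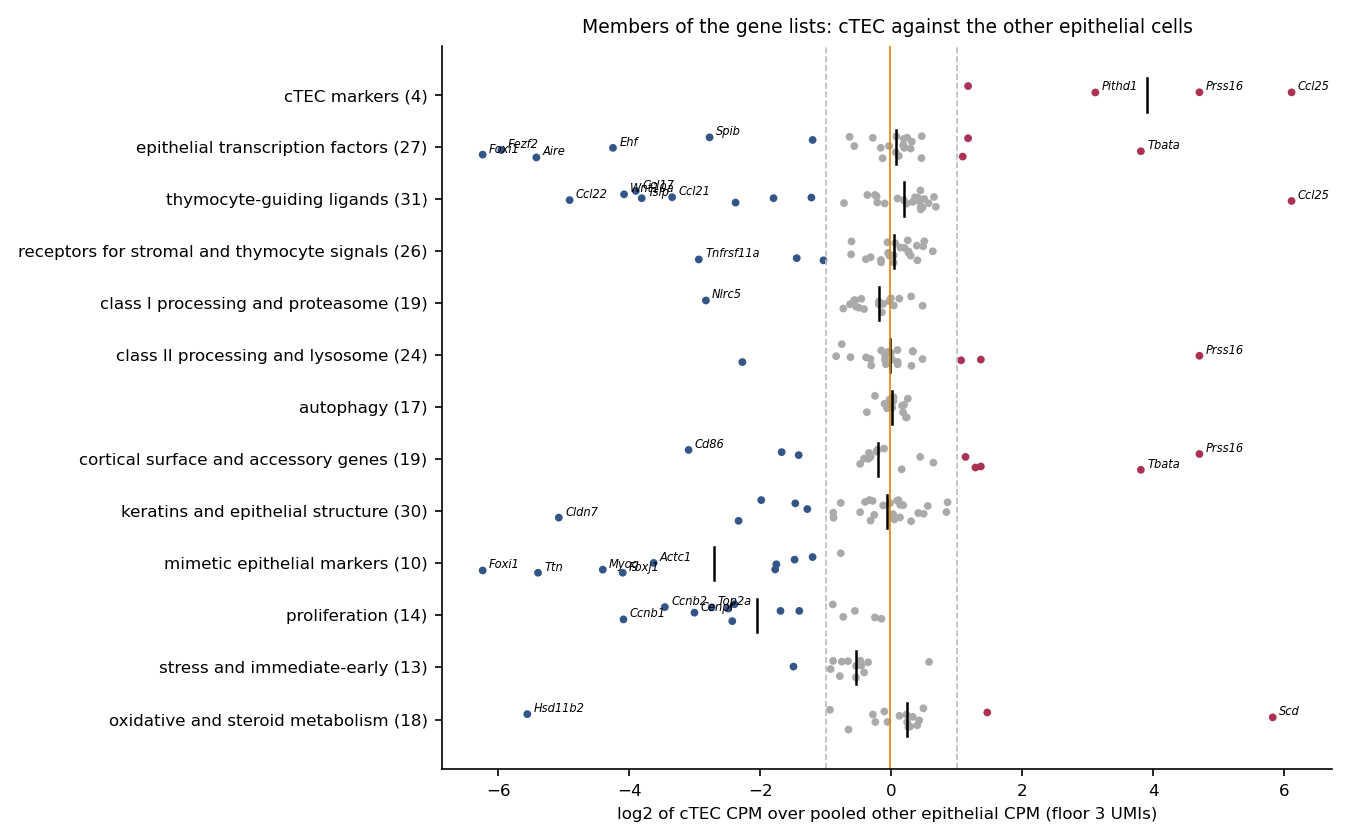
Each point is a gene of a list, placed by the log2 ratio of its CPM in cTEC to that in the pooled other epithelial cells; the black bar is the list median, dashed lines mark a 2-fold difference, the orange line is the median of the 12744 genes tested, and numbers in brackets are members tested. Points right of the dashed line are few outside the cTEC markers, and mimetic and proliferation genes lie mostly on the left.

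A lead over every other epithelial label of at least 3-fold was held by 6 of 5299 genes (0.113%), counting only genes detected in at least 25% of cTEC with 100 or more UMIs there, and a lead over every label of the library by 5 (0.0944%). Besides Prss16, Pithd1 and Ccl25 these were Syne3, Zmat4 and Pltp. In TEC-b alone, Ccl25, Pltp and Syne3 were under 3-fold, at 2.45, 2.77 and 0.676, and Ccl25 was at 2.51 without cells under 1% mitochondrial UMIs. Zmat4, a zinc-finger gene, stood at 129.1 CPM against 34.8 in early Pr, a ratio of 3.72 that was 3.99 in TEC-b. Pltp, a phospholipid transfer protein, stood at 261.7 CPM against 74.3 in mTEC1, but fibroblasts of label TMC2 had 235. Syne3 stood at 157.2 CPM against 32.7 in goblet-like cells, a ratio of 4.81. The next genes in order were Kcna1, a potassium channel (65.6 CPM, 2.77 times early Pr), Hadh, a mitochondrial enzyme of fatty acid oxidation (215.5 CPM, 2.68 times goblet-like cells), and Dact1, a Wnt signalling regulator (96.2 CPM, 2.58 times). Csrp2, a LIM-domain protein, was detected in 91.96% of cTEC at 1631 CPM and stood 2.53 times above mTEC1. Isg20, an interferon-induced exonuclease, led 2.40-fold over mTEC2 in all cTEC and stood at 0.933 of it in TEC-b. Rbp4, the retinol carrier, led 2.29-fold and 1.146-fold without the Adipoq barcodes.

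Genes lowest in cTEC among epithelial labels were ranked only where each of the 5 other labels compared had at least 100 UMIs. They were led by Atf3, a stress-response factor, at 67.4 CPM against 134.6 in early Pr, the lowest of the others, a ratio of 2.00. Klf6, another early-response factor, was 1.61 times higher in the lowest other label and Itgb8, an integrin that activates TGF-beta, 1.48 times. Bst2 (tetherin), the class Ib gene RT1-S3, Cd47, Rab25 and Spint2 followed at 1.44, 1.36, 1.32, 1.31 and 1.30 times. Within TEC-b the ratio was 2.14 for Bst2 and 1.04 for Spint2.

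Early Pr cells of the same cluster were the closest comparison, with 311 cTEC and 878 early Pr in TEC-b at medians of 10757 and 10626.5 UMIs and of 6.09 and 6.25% mitochondrial UMIs. Here 101 of 9966 genes (1.01%) were at least 2-fold higher in cTEC and 96 (0.963%) at least 2-fold lower, with a median of 0.05. Genes outside the lists were again taken from the largest ratios after the values were seen. Ccl25 stood at 271.1 against 3.71 CPM, detected in 16.4% and 3.19% of cells. Prss16 stood at 228.5 against 10.7 CPM and Tbata at 1881 against 119.8. Among the next largest ratios were Lmod3, an actin-filament nucleator (25.3 against 1.65 CPM), F2 (43.8 against 2.99) and Cdh4, R-cadherin (72.1 against 11.5). Dll4 was at 12.4 CPM in these cTEC, 4.44 times (2.68 to 7.49) the early Pr level, but fell under the 100-UMI minimum. Krt7 was the keratin that differed, at 563.1 CPM, 2.54 times early Pr, while Ctsl and Ly75 differed by 1.62 and 1.92 times and Cxcl12 by 0.976.

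The lower genes included Scgb2a1, a secretoglobin (0.294 against 26.3 CPM), Cyp2e1, a cytochrome P450 (27.6 against 129.4), and Cldn11, a tight-junction claudin (15.6 against 67.1). The inflammatory genes Cxcl1 (6.18 against 31.6 CPM) and Cxcl10 (5.59 against 25.3) were also lower. Ackr4 stood at 510.2 against 1030 CPM. Of 13 stress and immediate-early genes, 5 were lower (Fos, Fosb, Egr1, Atf3 and Hsph1), with a list median of -0.63, Fos standing at 402.6 against 927.2 CPM.

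**Figure D4:**
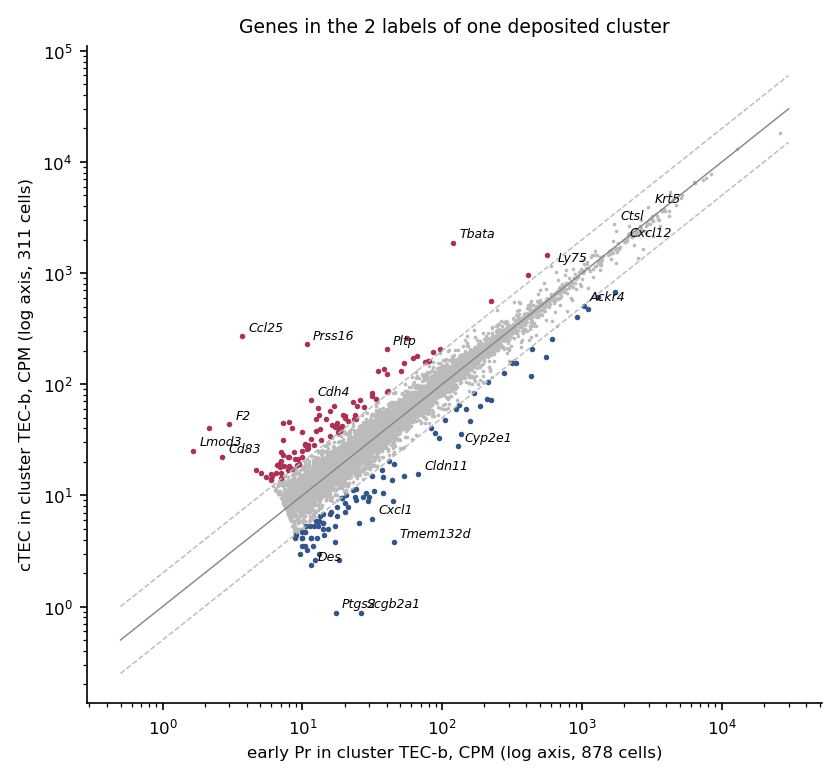
Each point is a gene with at least 100 UMIs in the TEC-b cluster, with CPM in early Pr on the x axis and in cTEC on the y axis (log axes), under 3 UMIs drawn at 3; dashed lines mark a 2-fold difference. Most genes lie along the diagonal, Ccl25, Prss16 and Tbata stand far above it, and Scgb2a1, Ptgs2 and Tmem132d lie far below.

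The same contrast was uneven among cells. Of the 311 TEC-b cTEC, 75 (24.1%, 19.5 to 29.3%) had Tbata at 1000 CPM or more, and these held 905 of the 922 Ccl25 UMIs. In them Prss16 stood at 899.2 CPM and Pithd1 at 806.7. In the other 236 cells Prss16 stood at 18.5 and Pithd1 at 87.3, against 10.7 and 54.4 in early Pr of that cluster under the same Tbata level. Median depth was 10444 UMIs in the Tbata-high cells and 10905.5 in the rest, and the mitochondrial medians were 5.91 and 6.18%. The Tbata-high cells of TEC-b therefore differed from the TEC-a cells in depth and mitochondrial share while both carried Ccl25. Ooep and Syne3 stood at 30.8 and 66.6 CPM in the Tbata-high TEC-b cells and at 2535 and 2262 in the Tbata-high TEC-a cells.

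Variation among cTEC was summarised by the Fano factor, the variance of a gene's count over its mean, in 411 cells thinned to 3000 UMIs (37 left out), where the median gene had 1.17. Tbata had 58.0 and kept 29.7 within TEC-b, Apoe, a lipid carrier, had 28.9 and 24.1, and Gsn, an actin-severing protein, 22.9 and 21.5. Fabp4 had 105.7 but 12.7 without the Adipoq barcodes, and Car3, carbonic anhydrase 3 of fat and muscle, had 40.3 and then 1.00. The medullary chemokine Ccl21 had 45.4 and 9.91 in TEC-b, and the matrix genes Dcn and Col3a1 had 27.5 and 22.04 and, in TEC-b, 11.6 and 7.83.

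Thymocyte RNA in cTEC was low. The 10 thymocyte genes (Ptprc, Lat, Lck, Ptcra, Rag1, the CD3 genes Cd3d, Cd3e and Cd3g, and the CD8 genes Cd8a and Cd8b) gave 166 UMIs, 33.3 CPM, with at least 1 UMI in 73 cTEC (16.3%). The CPM was 18.5 in early Pr, 40.3 in mTEC1, 189.7 in mTEC2, 9.09 in fibroblasts and 7064 in cells labelled Thymocyte. After thinning, 2.73% of cTEC, 2.73% of mTEC1, 0.887% of early Pr and 0.951% of fibroblasts had a UMI. Each share is a single random draw of few positive cells. Early Pr had 9 such cells, while in another draw its TEC-b part alone had 19 of 878 (2.16%). The thinned difference between cTEC and early Pr is therefore not firm. At 3 or more UMIs there were 5 cTEC, all of them in TEC-b, and the highest count in a cell was 62.

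The thymocyte library shows which stages carry receptors for these ligands. Ccr9, the CCL25 receptor, stood at 35.1 CPM in cells deposited as DN, 69.0 in DP-P, 498.9 in DP, 740.7 (692.8 to 791) in Pre DP-sig and 576.7 in DP-sig, with 29.5 in Mature CD4-1. The highest stage was thus the one deposited as Pre DP-sig, and Mature CD4-1 was lowest of these. The other mature labels were not as low, with Mature CD4-2 at 106.1 and Mature CD8-1 at 78.1 CPM, above DN and DP-P. Cd8a was detected in 96.4% and Cd4 in 74.4% of the DN cells, at 702.3 and 149.7 CPM against 1497 and 1350 in DP. Shares of cells depend on depth, which was not matched among the stages. The Cd8a level goes against reading that label as double-negative, while the Cd4 share alone does not settle it. Cxcr4 varied less by CPM, from 60.0 in DN to 129.2 in DP and 137.5 in Pre DP-sig. Its share of cells went the other way, at 68.2% of DN and 77.8% of DP-P against 34.0% of DP and 35.4% of Pre DP-sig. The order of stages for Cxcr4 thus depends on the measure. Notch1 was highest in gdT cells (198 CPM), with 57.7 in DN and 16.2 in DP. Il7r stood at 15.1 CPM in DN, 1.27 in DP and 326.8 in Mature CD4-1, the reverse of Ccr9 across these stages. Immature CD8-1 carried both, with Ccr9 at 597.8 and Il7r at 96.6 CPM. In gdT cells Il7r was also high, at 243.2 CPM. Kit was highest in gdT cells (47.4 CPM), with 14.3 in DN and 1.32 in DP. Ccr7, the receptor of Ccl19 and Ccl21, stood at 0.212 CPM in DP and 59.1 in Mature CD4-1.

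In the section, cell types had been assigned by the authors to bins of 20 chip units with RCTD, a method that splits the RNA of a bin among reference cell types. The bins hold several cells or parts of cells, and the weights are estimates. Of 592087 labelled bins, 3334 (0.563%) had cTEC as the first label and 86307 (14.6%) as the second. cTEC was the most frequent second label, with 34.7% of all second labels, against 16.2% for mTEC-prol. The median weight of cTEC was 0.420 where it came first and 0.174 where it came second.

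By deposited region, cTEC was the first label of 0.586% of cortical bins (2398 of 409180), 0.735% of capsular bins and 0.0487% of medullary bins (29 of 59534), a cortex-to-medulla ratio of 12.03 (8.36 to 18.0). In any place cTEC was found in 17.2% of cortical, 14.2% of capsular and 3.34% of medullary bins, a ratio of 5.15. No bin with an epithelial or other stromal first label had cTEC second, such as 0 of 7579 with mTEC-prol first. The part of this pairing in the any-place shares was not tested. Within the medulla, the region deposited as mEFA had 5.62% and that deposited as mECA 2.24%. Neighbouring bins share RNA and tissue, so these intervals are too narrow. Medullary bins were deeper, at a median of 507 UMIs against 306, and the ratio moved with depth. With the bins cut into 5 equal groups from shallow to deep, the any-place ratio of cortex to medulla was 1.17, 1.502, 2.68, 5.29 and 9.60. The cortical share was the higher one in each group, but in the shallowest the shares were close. They were 5.82% of cortical bins and 4.99% of only 661 medullary bins there. The order of the capsular and cortical regions was not stable: in any place, capsular over cortical was 0.823 in these bins and 1.09 in segmented cell bins.

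Along the axis from the medulla, cTEC in any place was found in 9.76% of non-medullary bins within 40 units of a medullary bin, 15.3% at 40 to 100 units, and 17.6, 17.9 and 17.3% at 100 to 200, 200 to 400 and 400 to 800 units. It was 15.3% at 800 to 1600 units and 9.51% (8.99 to 10.0%) beyond 1600. On this axis the share was highest between 100 and 800 units. By distance from the capsule line it was 13.85% at 50 to 100 units and 18.1% beyond 800. Median depth fell from 450 UMIs nearest the medulla to 240 beyond 1600 units, so depth moved with this axis and its part in it was not tested. As a first label cTEC was most frequent on the capsule line itself, at 2.12% of bins, against 0.528 to 0.619% at greater distances. Squares of 400 units differed widely even without any medullary bin: among 1117 such squares the median was 15.4%, and the 10th and 90th percentiles were 6.99 and 26%. In the 124 squares with at least 50% medullary bins the median was 3.5%.

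**Figure D5:**
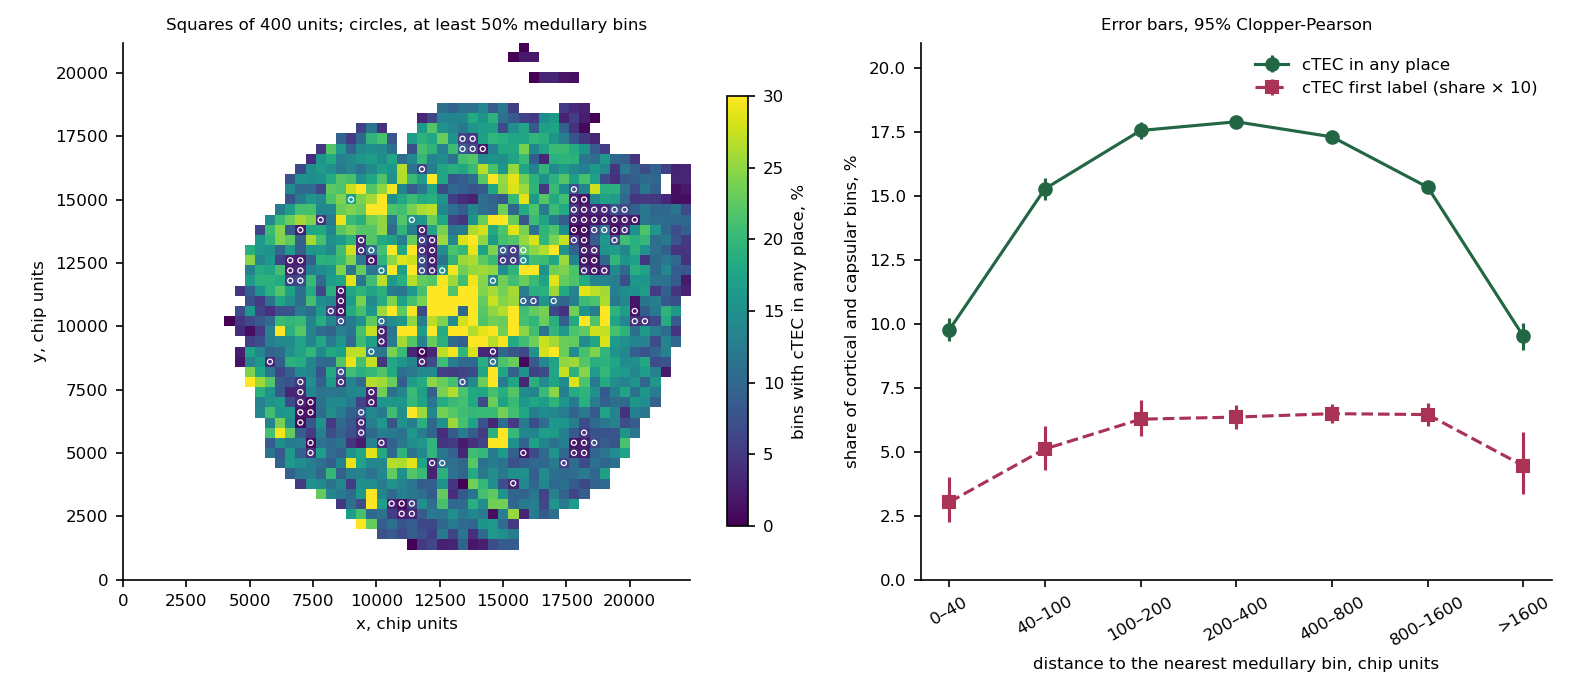
Left, the share of labelled bins with cTEC in any place in squares of 400 chip units (colour scale ends at 30%; circles mark squares with at least 50% medullary bins). Right, that share and the first-label share, the latter multiplied by 10, in cortical and capsular bins by distance to the nearest medullary bin, with 95% Clopper-Pearson intervals; the any-place share is highest between 100 and 800 units.

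Where cTEC was the second label, the first label was DN in 52.5% of bins, DP in 26.3% and Pre DP-sig in 9.96%. Taken as a share of each first label, cTEC came second in 17.5% of DN, 16.4% of DP, 16.1% of Pre DP-sig, 10.2% of DP-P, 8.47% of AgoSel2, 6.33% of Treg and 6.19% of Mature CD4-2 bins. The 3 most frequent of these first labels thus had nearly the same share, and the Treg and mature stages a lower one. Where cTEC came first, the second label was DP in 43.1% and DN in 30.1%. With a stromal first label cTEC never came second (0 of 7579 mTEC-prol, 0 of 6562 mTEC2 and 0 of 4168 mTEC1 bins). The pairings above are therefore with thymocyte labels only. They were not split by region or depth, so the part of either was not tested, and no direct contact was measured.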

How the data were processed

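Per the labels' protocols, 1 stromal and 1 thymocyte 10x library and 1 Stereo-seq section were made. The deposited counts are whole UMIs for each barcode and gene, and the submitters' processing notes name Cell Ranger 8.0.0, Seurat 5.3.0 and build mRatBN7.2. The deposited percent of mitochondrial UMIs was matched by 2 mitochondrial ribosomal RNA genes, and all 15 mitochondrial genes were summed here instead. The section's tables hold counts per bin and RCTD weights, each a fraction given by the authors. How the regions were drawn, and the gene list behind each medullary score that the authors deposited, are not given in the sources used here, and the score was not used.

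UMIs were summed per label with NumPy 2.4.6 and pandas 2.3.3. Intervals are exact Poisson or Clopper-Pearson at 95% (SciPy 1.17.1), and a ratio against fewer than 3 UMIs used 3. Annotated cells had 501 to 6999 genes, and 2934 barcodes without annotation stayed out. The code was tested on simulated data. Genes named were list members that answer a comparison, the 12 with the largest lead over epithelial labels, 8 over all labels, the 8 lowest and the 8 with the largest Fano factor. Exceptions are marked. The cells and the lists were chosen with earlier results of these data known. Alternatives were cell filters, thinning, other totals and minimums, and other ways of counting bins.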

Additional observations from a re-analysis of the deposited data

Results flagged for a closer look

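Barcodes without annotation lay outside every comparison above. The genes named next were picked because they stood above their level over all annotated cells, most of which are not epithelial. All of them stood below their level in cTEC, where Ccl25 was at 534.7 and Tbata at 3128 CPM. In these 2934 barcodes Ccl25 stood at 87.73 CPM (24.75 over annotated cells), Prss16 at 32.32 (10.23), Foxn1 at 26.2 (7.126), Tbata at 543.9 (181.4), Pithd1 at 60.72 (48.59) and Krt8 at 373.4 (204.3). Epcam was not above that level, at 252.3 against 276.2 CPM, and Psmb11 gave 8 UMIs. Of the 760 Ccl25 UMIs, 257 lay in 1 barcode. Adipoq stood at 29.09 CPM against 5.333, and 250 of its 252 UMIs lay in barcodes with more than 6999 genes, the most any annotated cell had. Those 67 barcodes, with a median of 42415 UMIs, held 83.29% of the Ccl25 and 58.57% of the Prss16 UMIs without annotation, and 7 of them had any Ccl25. Foxn1 lay mostly (66.96%) in the 2806 barcodes at 5% or more of the deposited mitochondrial percent. What these barcodes hold was not tested.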

How the results depend on the processing

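Of 114 alternative values, 76 stayed within the main value's counting interval or 1.5 times its count, 37 moved and 1 reversed. The cTEC share of annotated cells was 2.38% with TEC-b cells alone and 2.95% without cells under 1% mitochondrial UMIs, and the share of epithelial cells 14.4% and 17.7% (both alternatives chosen after seeing the data). Leads of 3-fold numbered 12 by the mean of the cells' CPM, 44 with a minimum of 20 UMIs, and 3 without cells under 1% mitochondrial UMIs. Genes 2-fold higher numbered 66 after thinning to 1000 UMIs, 445 with that minimum and 608 with equal weight per label. Genes 2-fold lower numbered 156, 1953 with that minimum and 1629 for TEC-b alone. Thinning left fewer genes to test (4323). The marker ratio, the median over 5 markers, main value 6.05, was 4.33 after thinning, 11.4 by the mean of cells, 3.54 for TEC-b and 3.48 without cells under 1% mitochondrial UMIs. The thymocyte share was 2.73% after thinning. The cortex-to-medulla ratio of first labels (12.03) was 7.64 in cell bins, 5.15 with any place, 6.19 by weights, and 2.25, 6.10, 3.20 and 26.6 in depth groups 1, 2, 3 and 5 of 5 (chosen after seeing the data). In bins given 1 type it reversed to 0.604, on 22 of 262611 cortical and 1 of 7213 medullary bins. Causes were not tested. The label by initial cluster gave no value, since no cluster is named cTEC. No paired analysis was possible because there was a single sample per group. Depth limits Psmb11 and Dll4, with 52 and 49 UMIs in all cTEC.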
